A study of Homo sapiens with 9 samples.

Results

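The epidermal growth factor receptor (EGFR) family and its regulators were followed in PANC-1, a human cell line derived from a carcinoma of the pancreatic duct. The set listed 10 genes: the receptors EGFR, ERBB2 and ERBB3, the ligands AREG, EREG, HBEGF, TGFA and BTC, and the inhibitors ERRFI1 and LRIG1. They were chosen by gene symbol through the Entrez gene numbers of the deposited tables, and 9 of the 10 were found among 16750 genes. TGFA was not analysed here.

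RNA sequencing libraries came from PANC-1 cells transduced with lentiviral plasmids and selected with puromycin, which stayed in the medium of every line at a lower concentration. Of the 9 libraries, 3 were from clones overexpressing the transporter gene SLC22A10 (SLC22A10_OE), 3 from clones overexpressing its relative SLC22A15 (SLC22A15_OE) and 3 from clones carrying the empty vector (vector). The vector group shared the viral backbone and the selection but not the added gene. The titles of each group end in A1, A2 and B1, and libraries that share a letter may share an origin. The labels do not say how many clones stood behind each group or whether its libraries came from separate cultures, so p-values here measure library-to-library spread that may be technical. Differences between groups of clones cannot be told apart from the effect of the added gene.

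EGFR family receptors sit in the plasma membrane and signal as pairs. Ligand binding joins receptors into dimers whose kinase domains phosphorylate their tails, which recruit adaptors that feed the RAS-ERK and PI3K pathways. ERBB2 has no known ligand of its own and is a favoured dimer partner, while ERBB3 binds neuregulins, has little kinase activity and recruits PI3K. The ligands are made as membrane proteins and released by metalloproteases. ERRFI1 (also called MIG6) binds the active kinase domain and blocks it, and LRIG1 promotes the loss of receptors from the cell. In the pancreas, EGFR signalling is known for its part in the conversion of acinar cells to duct-like cells that precedes ductal cancer.

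Levels are given in CPM, reads divided by a scaled library size. Library totals ran from 28.4 to 42.9 M reads, and 1 CPM stood for 27.8 to 43.4 reads, which alone gives a counting SD of 15.2% to 19.0% at that level. The added genes matched the labels. SLC22A10 had 80.5, 91.4 and 84.4 CPM in SLC22A10_OE, no read in SLC22A15_OE, and in the vector group only 1 read, in vector 2. SLC22A15 had 78.3, 73.3 and 76.1 CPM in SLC22A15_OE, 3.44, 4.12 and 3.96 CPM in SLC22A10_OE, and 6.52, 6.36 and 5.46 CPM in vector. In each group 1 library held less mitochondrial ribosomal RNA than the others, SLC22A10_OE 3, SLC22A15_OE 1 and vector 1, with 0.0151%, 0.0111% and 0.00958% of reads, where the others had 0.0454% to 0.0843%. In bulk RNA, fewer cells expressing a gene and less RNA per cell cannot be told apart.

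All 9 genes passed the filter of at least 1 CPM in at least 3 libraries, as did 14554 genes in all. Differences are on the log2(CPM + 1) scale, which understates changes of genes near 1 CPM, with limma's adjusted p over all genes tested. In SLC22A10_OE against vector, 5 of the 9 rose (ERBB2, ERBB3, AREG, EREG and BTC), where 34.7% of all genes were called higher, and 3 fell (EGFR, HBEGF and LRIG1), where 32.5% were called lower. The libraries of the 2 groups did not overlap for 9 of 9 members and for 69.2% of all genes. In SLC22A15_OE against vector, 3 rose (ERBB3, AREG and BTC) against 10.8% of all genes, and 3 fell (EGFR, HBEGF and ERRFI1) against 9.58%, and 7 did not overlap where 34.7% of all genes did not. A fit of these 2 groups alone, with the column number as a block, was added after seeing the data. It called 5922 genes in place of 2966, and 7 members in place of 6. In SLC22A10_OE against SLC22A15_OE, 6 were higher against 32.1% of all genes, 2 were lower against 30.8%, and 8 did not overlap against 67.4%. The median absolute difference over the members was 0.82 in SLC22A10_OE against vector, 0.29 in SLC22A15_OE against vector and 0.48 between the overexpressing lines, where it was 0.32, 0.12 and 0.29 over all genes tested. Both comparisons with vector share the same vector libraries.

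**Figure D1:**
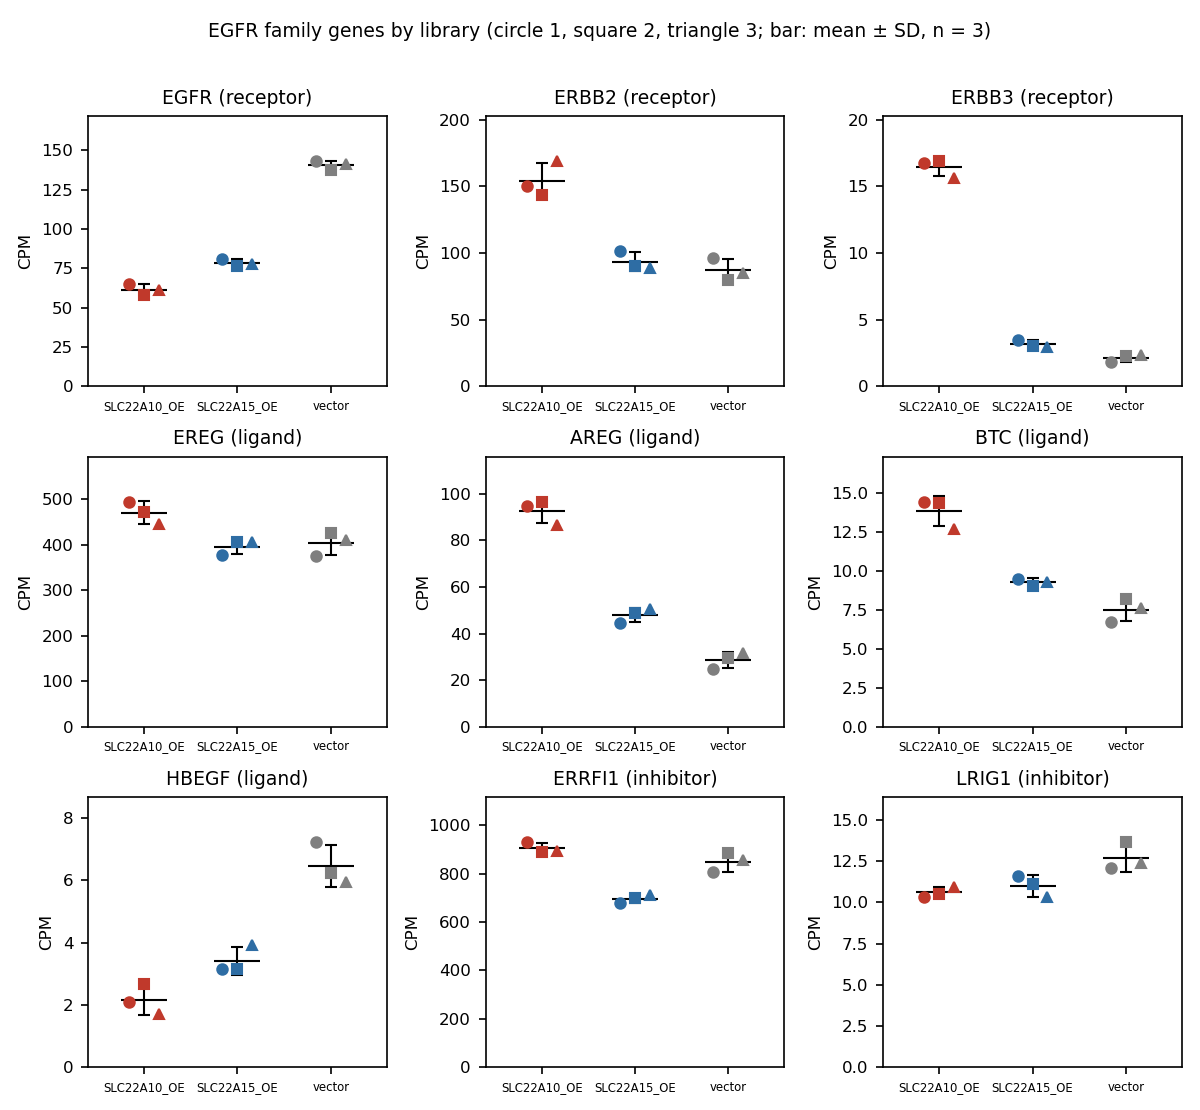
CPM of the 9 EGFR family genes in each library, with SLC22A10_OE, SLC22A15_OE and vector from left to right; symbols mark library 1, 2 and 3, and bars the mean and SD (n = 3), with each vertical axis starting at 0. EGFR lay between 58.3 and 64.9 CPM in SLC22A10_OE, 76.6 and 81.1 CPM in SLC22A15_OE and 137 and 143 CPM in vector, and ERBB3 lay between 15.6 and 16.9 CPM in SLC22A10_OE and at most at 3.49 CPM elsewhere.

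EGFR, the receptor for AREG, EREG, BTC, HBEGF and other ligands, was lower in both overexpressing lines. It had 64.9, 58.3 and 61.5 CPM in SLC22A10_OE, 81.1, 76.6 and 77.6 CPM in SLC22A15_OE, and 143, 137 and 141 CPM in vector. All 3 groups stood apart, with vector highest and SLC22A10_OE lowest. Against vector, EGFR fell by 1.18 on the log2 scale in SLC22A10_OE (SE 0.05, adjusted p 9.22e-10) and fell by 0.83 in SLC22A15_OE (SE 0.05, adjusted p 1.57e-07). In CPM + 1 these were 0.442 and 0.561 of the vector level. The overexpressing lines also differed from each other, with a log2 difference of -0.34 in SLC22A10_OE against SLC22A15_OE (SE 0.05, adjusted p 8.01e-05). By size, 1.69% of all genes tested changed as much as EGFR in SLC22A15_OE against vector, and 5.76% in SLC22A10_OE against vector.

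ERBB2, the dimer partner without a ligand, was higher in SLC22A10_OE. It had 151, 144 and 169 CPM in SLC22A10_OE, 102, 90.6 and 88.4 CPM in SLC22A15_OE, and 96.5, 80.0 and 84.9 CPM in vector. The SLC22A10_OE libraries lay above all others, and the SLC22A15_OE and vector libraries overlapped. ERBB2 rose by 0.82 against vector (SE 0.08, adjusted p 1.25e-06) and by 0.71 against SLC22A15_OE (SE 0.08, adjusted p 5.75e-06). The difference between SLC22A15_OE and vector was 0.10 with a 95% confidence interval of -0.068 to 0.27 and did not pass the threshold (adjusted p 0.414). In the fit of these 2 groups with the column number as a block, added after seeing the data, it passed (adjusted p 0.0157).

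ERBB3, the neuregulin receptor, had the widest range of the set. It had 16.8, 16.9 and 15.6 CPM in SLC22A10_OE, 3.49, 3.04 and 2.97 CPM in SLC22A15_OE, and 1.82, 2.28 and 2.39 CPM in vector, from 59 to 650 reads a library. No groups overlapped. ERBB3 rose by 2.47 in SLC22A10_OE against vector (SE 0.10, adjusted p 5.26e-10), a size that 0.433% of all genes equalled or passed. This was a 5.54-fold difference in CPM + 1, which understates the change in CPM, with means of 16.4 in SLC22A10_OE and 2.16 in vector. ERBB3 rose by 0.40 in SLC22A15_OE against vector (SE 0.10, adjusted p 0.0128). Without SLC22A15_OE 1, the difference in SLC22A15_OE against vector was 0.35 with an adjusted p of 0.0512. In the authors' deposited table, on a scale of its own, the ERBB3 log2 fold change was 2.92 in SLC22A10_OE and 0.54 in SLC22A15_OE.

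The windows of 250 bases before the most upstream start of transcription listed by RefSeq are shown for EGFR and ERBB2, since these receptors moved in opposite directions in SLC22A10_OE (GRCh38.p14, both on the plus strand). Capitals mark matches to 4 motifs searched on both strands: TGACGTCA, the cAMP response element bound by CREB; TGANTCA, bound by AP-1; CCGGAAG, the core of sites of ETS factors; and TATAAA, the TATA box. No 2 matches overlapped.
EGFR, chr7:55018767-55019016: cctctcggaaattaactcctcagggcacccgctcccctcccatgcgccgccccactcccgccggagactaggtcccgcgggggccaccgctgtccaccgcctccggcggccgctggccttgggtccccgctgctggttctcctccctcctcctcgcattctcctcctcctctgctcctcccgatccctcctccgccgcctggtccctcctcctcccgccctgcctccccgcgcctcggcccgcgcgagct
ERBB2, chr17:39687844-39688093: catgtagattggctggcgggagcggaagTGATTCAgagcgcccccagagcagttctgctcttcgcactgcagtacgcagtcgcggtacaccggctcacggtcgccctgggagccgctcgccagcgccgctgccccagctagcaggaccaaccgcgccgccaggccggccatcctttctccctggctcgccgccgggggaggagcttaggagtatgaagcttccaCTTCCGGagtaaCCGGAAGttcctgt
The ERBB2 window held CCGGAAG on both strands, beginning 26 and 14 bases before the start, and an AP-1 match 222 bases before it. In RefSeq the neighbouring gene PGAP3 reaches into this window, to chr17:39688057, and the AP-1 match lies within PGAP3. The EGFR window held none of the 4 motifs. Of 35116 promoter windows of the same length, 1.65% held TGACGTCA, 6.57% TGANTCA, 8.52% CCGGAAG and 10.7% TATAAA. The EGFR window was 73.6% G and C and the ERBB2 window 65.6%, where the median window had 58%. A match is a description of letters and does not show a bound factor.

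**Figure D2:**
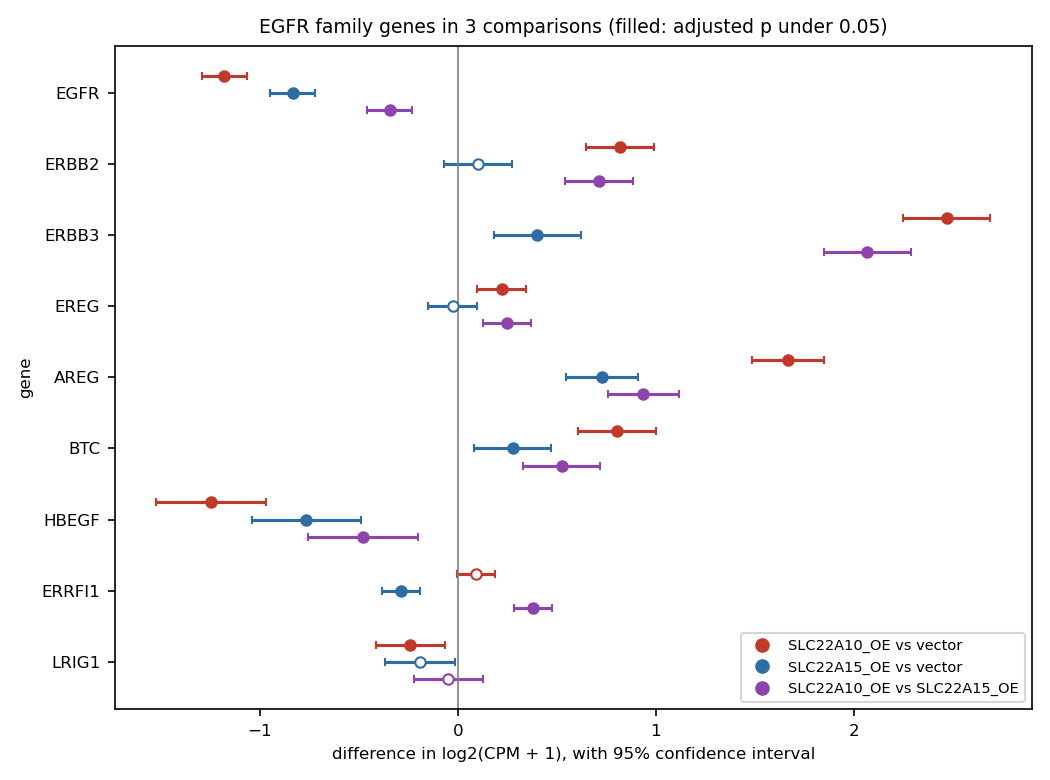
Difference in log2(CPM + 1) of each EGFR family gene with its 95% confidence interval from limma, for SLC22A10_OE against vector, SLC22A15_OE against vector and SLC22A10_OE against SLC22A15_OE; filled points had an adjusted p under 0.05. EGFR and HBEGF lay left of 0 in all 3 comparisons, ERBB3, AREG and BTC lay right of 0 in all 3, and the ERBB3 difference of 2.47 in SLC22A10_OE was the widest.

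EREG, AREG and BTC are neighbours on chromosome 4 and their promoter windows are shown because these ligands rose together in SLC22A10_OE by unequal amounts. EREG and AREG lie on the plus strand and BTC on the minus strand, with each window printed in the direction of its gene and capitals as above.
EREG, chr4:74364895-74365144: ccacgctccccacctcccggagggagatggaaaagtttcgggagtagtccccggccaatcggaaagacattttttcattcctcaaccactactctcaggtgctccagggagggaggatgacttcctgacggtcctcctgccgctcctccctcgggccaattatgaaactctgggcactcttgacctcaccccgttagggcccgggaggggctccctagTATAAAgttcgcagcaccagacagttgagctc
AREG, chr4:74444886-74445135: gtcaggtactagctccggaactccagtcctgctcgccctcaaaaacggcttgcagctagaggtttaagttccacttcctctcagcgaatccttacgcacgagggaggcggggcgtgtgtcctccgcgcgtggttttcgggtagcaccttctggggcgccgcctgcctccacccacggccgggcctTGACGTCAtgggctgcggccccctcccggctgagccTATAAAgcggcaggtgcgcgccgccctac
BTC, chr4:74794524-74794773: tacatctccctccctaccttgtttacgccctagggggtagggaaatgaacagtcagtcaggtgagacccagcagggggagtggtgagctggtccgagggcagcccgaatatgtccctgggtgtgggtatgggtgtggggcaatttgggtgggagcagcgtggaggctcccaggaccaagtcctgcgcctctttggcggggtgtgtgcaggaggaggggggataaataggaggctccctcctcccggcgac
AREG and EREG each held a TATA box, beginning 29 and 32 bases before the start. AREG also held TGACGTCA, beginning 65 bases before the start. The EREG and BTC windows held none of TGACGTCA, TGANTCA and CCGGAAG.

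EREG, a ligand of EGFR and ERBB4, was per kb of exon the most abundant ligand transcript in every group and moved little. It had 495, 472 and 445 CPM in SLC22A10_OE, 377, 406 and 405 CPM in SLC22A15_OE, and 375, 427 and 410.1 CPM in vector. The lowest SLC22A10_OE library lay above the highest vector library, while SLC22A15_OE and vector overlapped. EREG rose by 0.22 in SLC22A10_OE against vector (SE 0.06, adjusted p 0.00371) and was 0.25 higher than in SLC22A15_OE (SE 0.06, adjusted p 0.00199). In SLC22A15_OE against vector the difference was -0.026, with a 95% confidence interval of -0.15 to 0.096 (adjusted p 0.802).

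AREG, a low-affinity EGFR ligand, rose in both lines. It had 94.9, 96.5 and 86.5 CPM in SLC22A10_OE, 44.5, 48.9 and 50.4 CPM in SLC22A15_OE, and 24.8, 29.5 and 31.6 CPM in vector. The groups formed 3 separate bands with SLC22A10_OE on top. AREG rose by 1.66 in SLC22A10_OE against vector (SE 0.08, adjusted p 3.00e-09), by 0.73 in SLC22A15_OE against vector (SE 0.08, adjusted p 3.80e-05) and by 0.94 between the overexpressing lines (SE 0.08, adjusted p 9.05e-07). These were 3.17-fold, 1.66-fold and 1.91-fold differences on the scale with the pseudocount. By size, 1.99% of all genes tested moved as far as AREG in SLC22A10_OE against vector and 2.37% in SLC22A15_OE against vector.

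BTC, which binds EGFR and ERBB4, had 14.4, 14.3 and 12.7 CPM in SLC22A10_OE, 9.49, 9.05 and 9.31 CPM in SLC22A15_OE, and 6.71, 8.19 and 7.61 CPM in vector. The SLC22A10_OE libraries were highest and no groups overlapped. BTC rose by 0.80 in SLC22A10_OE against vector (SE 0.09, adjusted p 4.74e-06). In SLC22A15_OE against vector the difference was 0.28 (SE 0.09), with an adjusted p of 0.0447 that passed 0.05 in 8 of 18 alternative settings, over which it ran from 0.00895 to 0.141.

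HBEGF, a heparin-binding ligand of EGFR and ERBB4, went the other way. It had 2.09, 2.69 and 1.73 CPM in SLC22A10_OE, 3.14, 3.15 and 3.92 CPM in SLC22A15_OE, and 7.23, 6.24 and 5.94 CPM in vector, from 48 to 235 reads a library. Vector was highest and no groups overlapped. HBEGF fell by 1.24 in SLC22A10_OE against vector (SE 0.13, adjusted p 2.21e-06) and fell by 0.76 in SLC22A15_OE against vector (SE 0.13, adjusted p 0.000801). Between the overexpressing lines the difference was -0.48 (SE 0.13, adjusted p 0.00541). HBEGF lies on chromosome 5, apart from the other ligand genes.

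ERRFI1, the kinase-domain inhibitor, was per kb of exon the most abundant transcript of the set. It had 929.8, 890.2 and 895 CPM in SLC22A10_OE, 678, 697 and 710.0 CPM in SLC22A15_OE, and 804, 885 and 858 CPM in vector. The SLC22A15_OE libraries lay below all others, and the SLC22A10_OE libraries lay just above the vector libraries. ERRFI1 fell by 0.29 in SLC22A15_OE against vector (SE 0.04, adjusted p 0.000432) and was 0.38 higher in SLC22A10_OE than in SLC22A15_OE (SE 0.04, adjusted p 9.39e-06). In SLC22A10_OE against vector it differed by 0.093 (95% confidence interval -0.0037 to 0.19, adjusted p 0.0815).

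LRIG1, which lowers receptor levels at the membrane, moved little. It had 10.3, 10.5 and 10.9 CPM in SLC22A10_OE, 11.6, 11.1 and 10.3 CPM in SLC22A15_OE, and 12.1, 13.6 and 12.4 CPM in vector. Both overexpressing lines lay below vector and overlapped each other. LRIG1 fell by 0.24 in SLC22A10_OE against vector (SE 0.08, adjusted p 0.0190), a call that was lost without SLC22A10_OE 1 (adjusted p 0.0556) or without vector 2 (adjusted p 0.0829). In SLC22A15_OE against vector the difference was -0.19 (95% confidence interval -0.37 to -0.015, adjusted p 0.122), and between the overexpressing lines it was -0.048 (95% confidence interval -0.22 to 0.13, adjusted p 0.622).

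Divided by the length of the exons of each gene in kilobases (GENCODE release 29, all exons joined), the levels can be set against each other within a group. In SLC22A10_OE the order from high to low was ERRFI1, EREG, AREG, ERBB2, EGFR, BTC, ERBB3, LRIG1 and HBEGF. EGFR and BTC, with 5.32 ± 0.29 and 4.91 ± 0.34 CPM per kb (SD, n = 3), overlapped there, while other neighbours in the order did not. In SLC22A15_OE the same first 6 genes kept their places and LRIG1, HBEGF and ERBB3 followed, with no overlap of neighbours. In vector the first 5 were again ERRFI1, EREG, AREG, ERBB2 and EGFR, followed by HBEGF, BTC and LRIG1, which overlapped from one to the next at 2.71 ± 0.28, 2.66 ± 0.26 and 2.34 ± 0.15 CPM per kb, and ERBB3 at 0.280 ± 0.039 CPM per kb.

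ERBB2 made up more, and EGFR less, of the receptor transcripts in both overexpressing lines than in vector. The ratio of ERBB2 to EGFR per kb was 4.83 ± 0.41 in SLC22A10_OE, 2.29 ± 0.11 in SLC22A15_OE and 1.19 ± 0.09 in vector (SD, n = 3 each). The lowest and highest ratios were 4.46 and 5.28 in SLC22A10_OE, 2.19 and 2.41 in SLC22A15_OE and 1.12 and 1.30 in vector, so the groups did not overlap. Ratios and shares are given as values and were not tested. A share also moves with the other genes of its sum. The ERBB2 level itself differed by 0.10 in SLC22A15_OE against vector and did not pass the threshold in the main fit. Of the summed per-kb level of the 3 receptors, EGFR made up 16.1% in SLC22A10_OE, 29.8% in SLC22A15_OE and 45.2% in vector, and ERBB3 made up 6.46%, 1.80% and 1.05% of it in the same lines. The sum itself was 33.1 ± 2.2 CPM per kb in SLC22A10_OE, 22.7 ± 1.4 in SLC22A15_OE and 26.9 ± 1.6 in vector.

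AREG made up more, and EREG less, of the ligand transcripts in both overexpressing lines than in vector. AREG was 41.0% ± 0.8 of the summed per-kb level of the 4 ligands in SLC22A10_OE, 29.9% ± 0.6 in SLC22A15_OE and 19.9% ± 1.3 in vector. EREG was 55.9%, 66.4% and 75.5% in the same lines, and HBEGF 0.497%, 1.10% and 2.36%. The EREG level itself rose by 0.22 in SLC22A10_OE against vector, while its share was lower. The ratio of AREG to HBEGF per kb was 84.2 ± 13.9 in SLC22A10_OE, 27.3 ± 2.6 in SLC22A15_OE and 8.64 ± 1.86 in vector. The summed ligand level was 182 ± 10 CPM per kb in SLC22A10_OE, 129 ± 6 in SLC22A15_OE and 116 ± 8 in vector.

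**Figure D3:**
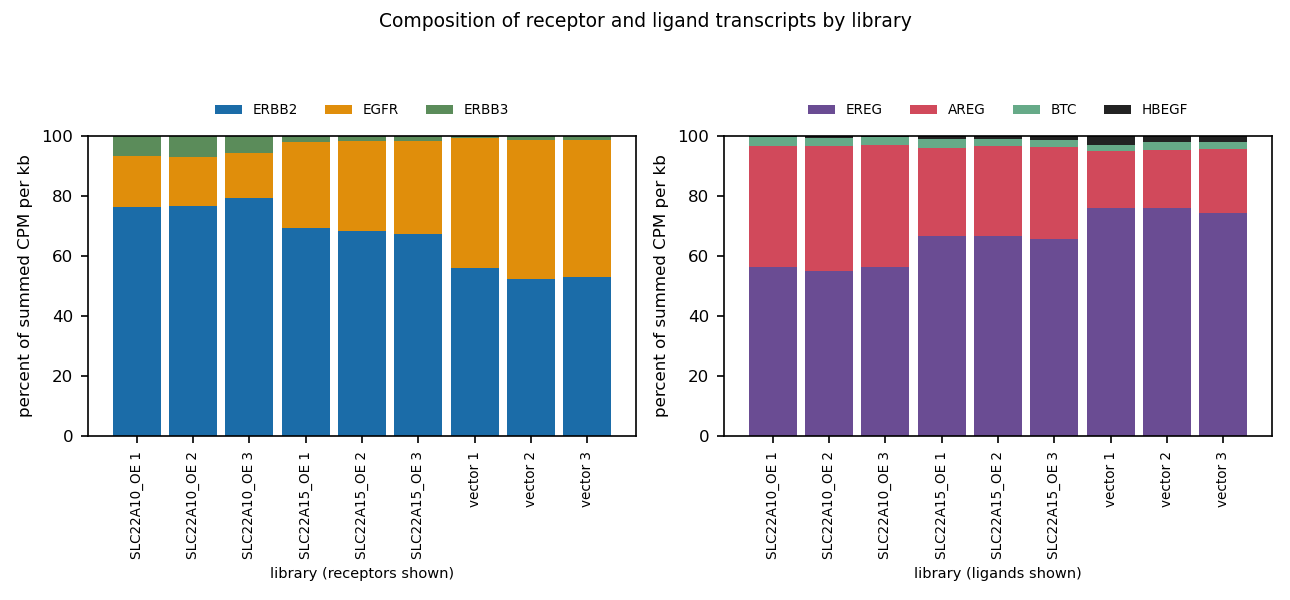
Share of each receptor (left) and each ligand (right) in the summed CPM per kb of its class, as percent, for each library of SLC22A10_OE, SLC22A15_OE and vector; TGFA is not in the sums. The EGFR share averaged 16.1%, 29.8% and 45.2% and the AREG share 41.0%, 29.9% and 19.9% from left to right.

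Neighbouring genes were compared at 3 loci. EGFR lies at chr7:55019021-55211628 in GENCODE release 29 (GRCh38), and of its 6 nearest tested protein-coding neighbours 3 fell and 1 rose in SLC22A10_OE against vector. GRB10, an adaptor for receptor kinases and the farthest of them, fell by 0.89 in SLC22A10_OE and fell by 0.74 in SLC22A15_OE (SE 0.06 each). LANCL2, the next tested gene on the other side, fell by 0.88 in SLC22A10_OE, and its difference in SLC22A15_OE was -0.068 (adjusted p 0.560). VOPP1 beyond it fell in both lines, by 0.38 and 0.25. Over the 711 tested genes of chromosome 7 the median difference was 0.13 in SLC22A10_OE, with 44.4% higher and 27.0% lower, and 0.16 in SLC22A15_OE, with 39.2% higher and 16.2% lower. Over all genes, 34.7% were higher and 32.5% lower in SLC22A10_OE, and 10.8% higher and 9.58% lower in SLC22A15_OE. The relation of EGFR to its neighbours and its chromosome was not tested.

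ERBB2 lies at chr17:39687914-39730426, where 4 of the 6 neighbours rose and 1 fell in SLC22A10_OE against vector. GRB7, an adaptor that binds ERBB2, rose by 1.83 (SE 0.08, adjusted p 1.31e-09) and averaged 39.7 ± 2.1 CPM in SLC22A10_OE, 10.6 ± 0.9 in SLC22A15_OE and 10.5 ± 0.8 in vector. Its difference in SLC22A15_OE against vector was 0.010 (adjusted p 0.949). MIEN1 rose by 0.53, PGAP3 by 0.59 and GSDMB by 0.52 in SLC22A10_OE, TCAP fell by 0.52, and STARD3 differed by 0.055 (adjusted p 0.540). In RefSeq the 3' ends of MIEN1 and ERBB2 overlap, and the labels do not say whether the authors' counting used strand, so a share of their reads may be counted for either. Over the 915 tested genes of chromosome 17 the median in SLC22A10_OE was 0.025, with 36.6% higher and 29.9% lower, where 34.7% and 32.5% of all genes were.

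EREG, AREG and BTC stand in a cluster of 486 kb with EPGN, which encodes a further EGFR ligand. From EPGN to BTC the differences in SLC22A10_OE against vector were -1.02, 0.22, 1.66 and 0.80, and in SLC22A15_OE against vector 0.13, -0.026, 0.73 and 0.28. EPGN averaged 0.688 ± 0.192 CPM in SLC22A10_OE, 2.75 ± 0.44 in SLC22A15_OE and 2.42 ± 0.33 in vector, and fell in SLC22A10_OE (adjusted p 1.58e-05). The ligand genes of 1 cluster thus moved in both directions. On the EPGN side, MTHFD2L, a mitochondrial folate enzyme, fell by 1.00 in SLC22A10_OE and fell by 0.71 in SLC22A15_OE. The chemokine gene CXCL2 fell by 0.62 in SLC22A10_OE, and CXCL3 rose by 0.47 in SLC22A10_OE and by 0.53 in SLC22A15_OE. On the BTC side, PARM1 rose by 0.59 in SLC22A10_OE, while RCHY1 and THAP6 did not pass the threshold.

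**Figure D4:**
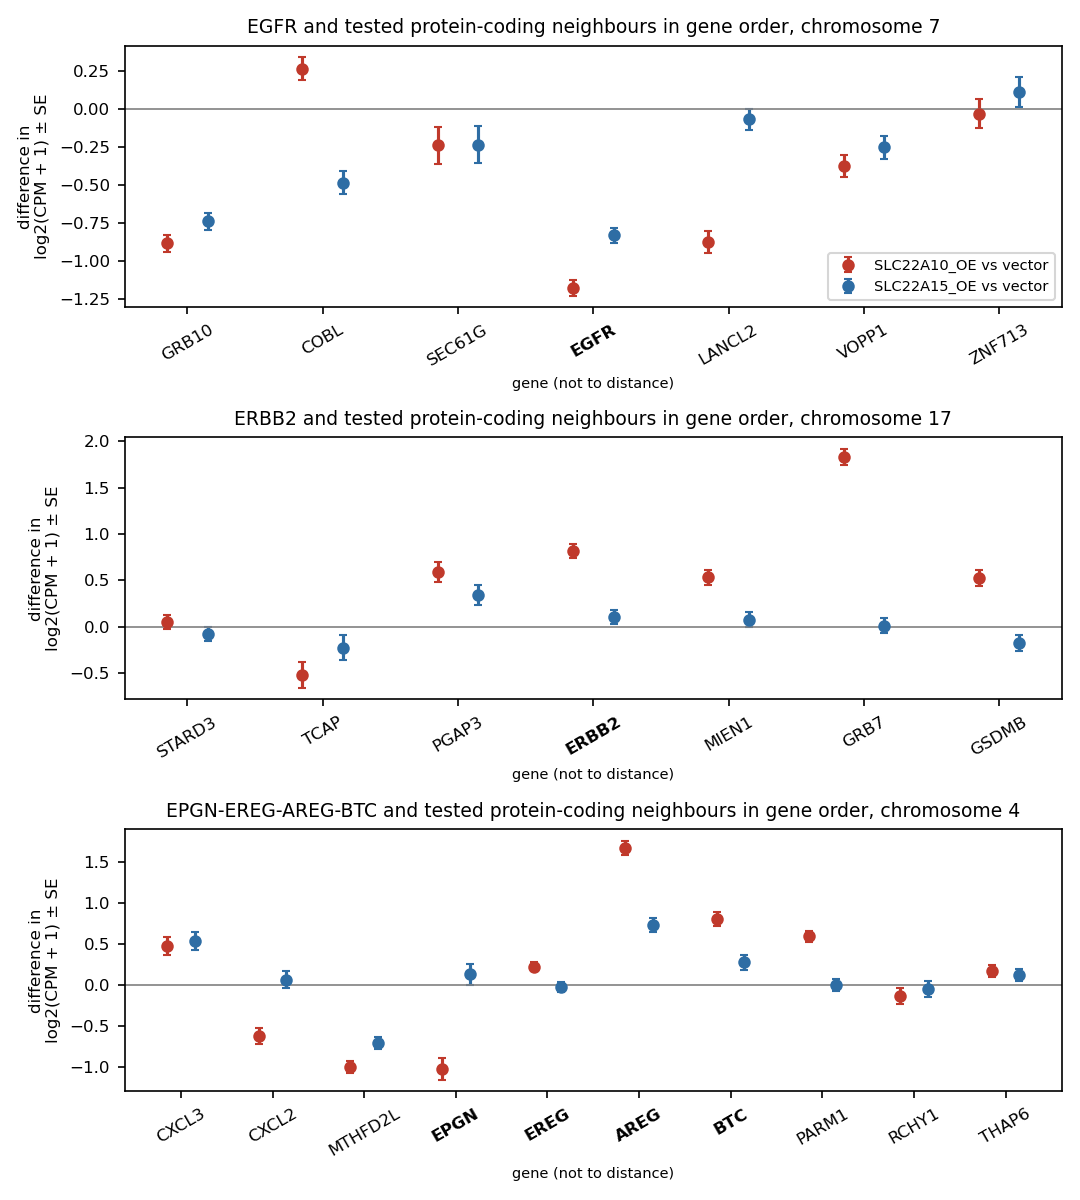
Difference in log2(CPM + 1) with its SE for the genes around EGFR, around ERBB2 and around the ligand cluster, in gene order and not to distance, for SLC22A10_OE against vector and SLC22A15_OE against vector; bold names mark the genes of the cluster or the receptor. GRB7 reached 1.83 in SLC22A10_OE, above ERBB2 at 0.82, and within the ligand cluster EPGN stood at -1.02 and AREG at 1.66.

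The genes whose pattern over the 9 libraries lay nearest to that of EGFR were CDCP1, a membrane glycoprotein, FRMD6, a FERM-domain protein, and CD44, the hyaluronan receptor. Their distances from EGFR, over log2(CPM + 1) centred on each gene's mean and among 11690 genes, were 0.126, 0.171 and 0.235. CDCP1 averaged 122 ± 6 CPM in SLC22A10_OE, 147 ± 4 in SLC22A15_OE and 265 ± 11 in vector. CD44 averaged 662 ± 35, 779.5 ± 27.7 and 1433 ± 61 CPM in the same lines. They were picked for this likeness, so their levels are a description.

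The other genes of the pathway were taken as 6 lists, none of which is counted as independent evidence. Of 7 further ligands and receptors, 3 were tested, and EPGN and NRG4, a ligand of ERBB4, fell in SLC22A10_OE against vector, NRG4 by 0.61. NRG2, which binds ERBB3 and ERBB4, fell by 0.82 in SLC22A15_OE against vector. NRG4 averaged 0.433 CPM in SLC22A10_OE, from 8 to 20 reads a library, and 1.19 in vector. NRG2 averaged 0.566 CPM in SLC22A15_OE, from 19 to 25 reads a library, and 1.78 in vector. Among 10 tested sheddases and their carriers, 6 rose and 4 did not pass the threshold in SLC22A10_OE against vector, and 1 rose and 2 fell in SLC22A15_OE. Among all genes, 34.7% were higher and 32.5% lower in SLC22A10_OE, and 10.8% higher and 9.58% lower in SLC22A15_OE. The list medians were 0.24 and 0.075, where all genes had 0.0046 and 0.0056. TSPAN15, a tetraspanin partner of ADAM10, averaged 17.0 CPM in SLC22A10_OE, 10.9 in SLC22A15_OE and 1.67 in vector, and rose by 2.76 and 2.15 against vector. ADAM17, the main sheddase of AREG, EREG and HBEGF, rose by 0.33 in SLC22A10_OE and fell by 0.21 in SLC22A15_OE, and ADAM19 rose by 0.95 in SLC22A10_OE and fell by 0.70 in SLC22A15_OE.

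Of 26 tested genes of receptor attenuation and endocytosis, 7 rose and 12 fell in SLC22A10_OE against vector, and 1 rose and 5 fell in SLC22A15_OE against vector, with medians of -0.066 and -0.064. Over all genes, 34.7% were higher and 32.5% lower in SLC22A10_OE, and 10.8% higher and 9.58% lower in SLC22A15_OE. The ubiquitin ligase CBLB and the phosphatase PTPRJ each rose by 0.90 in SLC22A10_OE, and the recycling GTPase RAB11A rose by 0.38. UBASH3B fell by 1.51, the phosphatase PTPRK by 0.75 and EPS8 by 0.71. The same 3 genes fell by 0.64, 0.70 and 0.80 in SLC22A15_OE, where PTPRJ rose by 0.35.

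Of 31 adaptors and members of the RAS-ERK and PI3K path, 12 rose and 9 fell in SLC22A10_OE against vector, and 2 rose and 5 fell in SLC22A15_OE against vector, with medians of 0.011 and -0.028. Over all genes, 34.7% were higher and 32.5% lower in SLC22A10_OE, near the shares of this list, and 10.8% higher and 9.58% lower in SLC22A15_OE. MAPK3, which encodes the kinase ERK1, averaged 77.1 CPM in SLC22A10_OE, 37.8 in SLC22A15_OE and 29.2 in vector, and rose by 1.37 and 0.37 against vector. GAB1, an adaptor that recruits PI3K, rose by 0.54 in SLC22A10_OE, and BRAF rose by 0.53 in SLC22A10_OE and by 0.50 in SLC22A15_OE. PTPN11, the phosphatase SHP2, fell by 0.73 in SLC22A10_OE, PIK3R1 by 0.46 and HRAS by 0.36. PIK3R1, a regulatory subunit of PI3K, fell by 0.78 in SLC22A15_OE, KSR1 by 0.64 and STAT5B by 0.27.

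Of 21 tested genes known as outputs of ERK and its feedback, 7 rose and 7 fell in SLC22A10_OE against vector, with a median of 0.061. These shares are near those of all genes, 34.7% higher and 32.5% lower. SPRED3 rose by 1.52, the immediate early gene EGR1 by 1.29 and SPRY1 by 1.16, while FOSL1, which encodes an AP-1 subunit, fell by 2.26, IL1RAP by 1.06 and the ERK phosphatase DUSP7 by 1.05. FOSL1 averaged 14.1 CPM in SLC22A10_OE, 45.0 in SLC22A15_OE and 71.3 in vector. In SLC22A15_OE against vector, 13 of the 21 fell and 1 rose, with a median of -0.29, where 9.58% of all genes were called lower and 10.8% higher. DUSP6, an ERK phosphatase, fell by 1.10 there, to 10.1 CPM in SLC22A15_OE against 22.7 CPM in vector, FOSL1 by 0.65 and IL1RAP by 0.51, and EPHA4 rose by 0.17. Set against SLC22A15_OE, 13 of the 21 were higher in SLC22A10_OE and 5 lower, with a median of 0.33, where 32.1% and 30.8% of all genes were.

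Among 21 other receptor tyrosine kinases tested, 14 rose and 3 fell in SLC22A10_OE against vector, with a median of 0.49, and 5 rose and 3 fell in SLC22A15_OE against vector, with a median of -0.027. The shares of all genes were 34.7% higher and 32.5% lower in SLC22A10_OE, and 10.8% and 9.58% in SLC22A15_OE. ROR1, a WNT5A receptor, averaged 90.3 CPM in SLC22A10_OE, 101 in SLC22A15_OE and 9.88 in vector, and rose by 3.07 and 3.23. PTK7 rose by 2.03 and EPHB3 by 1.70 in SLC22A10_OE. MET, the hepatocyte growth factor receptor, rose by 1.24 in SLC22A10_OE and by 0.53 in SLC22A15_OE, and DDR1, a collagen receptor, by 1.59 and 0.42. EPHA2, an ephrin receptor, fell by 0.99 in SLC22A10_OE and by 0.35 in SLC22A15_OE, as EGFR did. AXL fell by 0.95 and DDR2 by 0.89 in SLC22A15_OE.

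**Figure D5:**
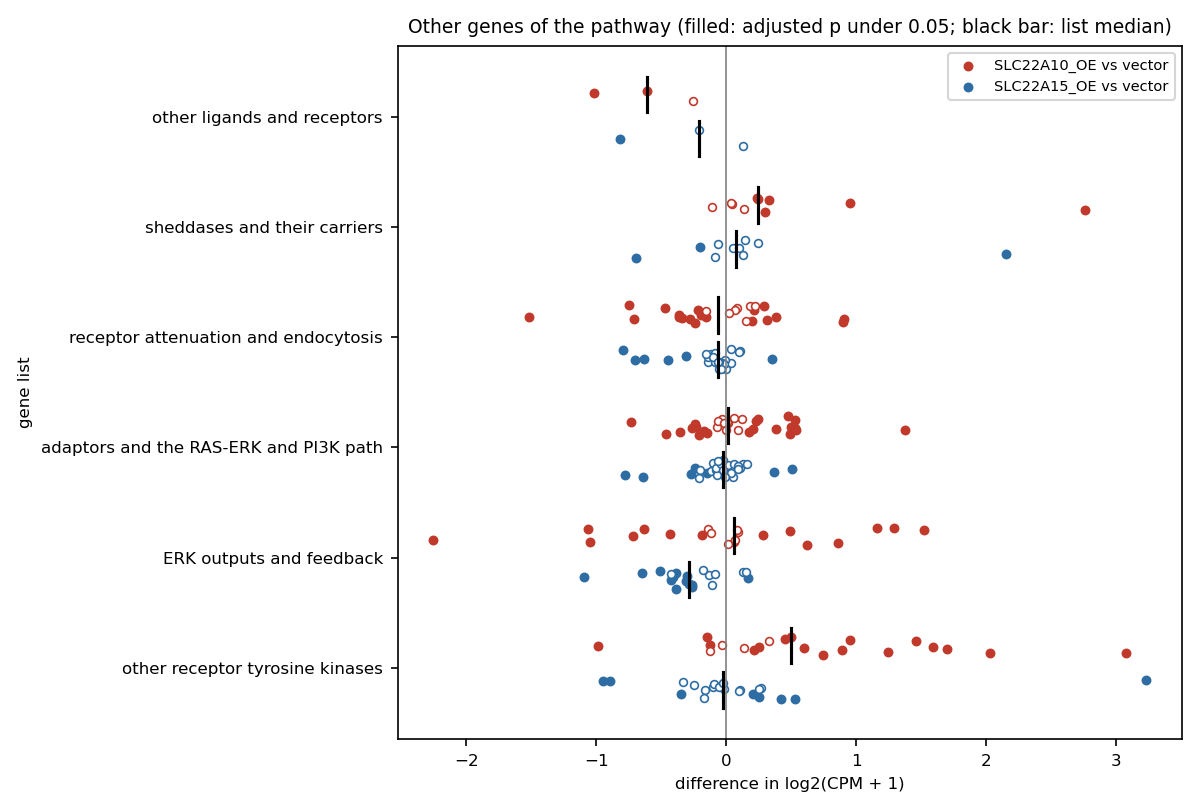
Difference in log2(CPM + 1) of each tested gene of the 6 pathway lists, for SLC22A10_OE against vector (upper row of each list) and SLC22A15_OE against vector (lower row); filled points had an adjusted p under 0.05 and black bars mark list medians. The median of the other receptor tyrosine kinases was 0.49 in SLC22A10_OE and -0.027 in SLC22A15_OE, and that of the ERK outputs 0.061 and -0.29.

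The library with little mitochondrial ribosomal RNA took the same place in every group for 3 members. The share of all genes that did so was not counted, so these places are a description. AREG and EREG were lowest in that library of each group, and ERBB2 was highest. ERBB2 had 169 CPM in SLC22A10_OE 3, 102 in SLC22A15_OE 1 and 96.5 in vector 1, above 151, 90.6 and 84.9 CPM as the highest of the others. Between these 3 libraries alone, with no test, ERBB2 differed by 0.80 in SLC22A10_OE against vector and by 0.074 in SLC22A15_OE against vector, EGFR by -1.20 and -0.81, AREG by 1.76 and 0.82, and ERBB3 by 2.56 and 0.67. Over the 6 other libraries, ERBB2 differed by 0.83 and 0.12, EGFR by -1.17 and -0.84, AREG by 1.62 and 0.68, and ERBB3 by 2.42 and 0.27. In that fit ERBB2 and LRIG1 passed the threshold in SLC22A15_OE against vector (adjusted p 0.0485 and 0.0420), and ERBB3 and BTC did not (adjusted p 0.0918 and 0.141).

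Scaling moved the differences of SLC22A10_OE. Centring each library on its median lowered every difference against vector by 0.12 in SLC22A10_OE and by 0.026 in SLC22A15_OE, and 38.3% of all calls in SLC22A10_OE were then higher, in place of 51.6%. Between SLC22A10_OE and SLC22A15_OE it lowered every difference by 0.095, and 39.0% of calls were then higher, in place of 51.0%. Centred in this way, the differences in SLC22A10_OE against vector were -1.30 for EGFR, 0.70 for ERBB2, 2.35 for ERBB3, 1.54 for AREG, 0.68 for BTC, -1.36 for HBEGF and -0.36 for LRIG1. EREG stood at 0.10 and was no longer called (adjusted p 0.149), and ERRFI1 stood at -0.028 (adjusted p 0.619). Against vector, the SLC22A10_OE medians of 3 lists are smaller in size than the shift of 0.12. They are the adaptors, 0.011, the ERK outputs, 0.061, and receptor attenuation and endocytosis, -0.066.

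Markers of the labelled duct cell were read beside these changes, and their part in the results was not tested. Of 8 epithelial and ductal markers, 6 were in the table and 5 were tested, and their summed level was 557 to 618 CPM in SLC22A10_OE, 295 to 330 CPM in SLC22A15_OE and 440 to 479 CPM in vector. KRT19, a ductal keratin, averaged 216 CPM in SLC22A10_OE, 70.2 in SLC22A15_OE and 73.2 in vector, and MUC1, a mucin, averaged 24.3, 8.37 and 4.16 CPM. KRT18 averaged 99.2 CPM in SLC22A10_OE, 95.4 in SLC22A15_OE and 162 in vector, KRT8 averaged 88.9, 47.5 and 91.4 CPM, and SOX9 156, 85.7 and 127 CPM. KRT7, a further keratin of the list, was too low to be tested. It averaged 0.183 CPM in SLC22A10_OE, 0.235 in SLC22A15_OE and 0.449 in vector. Against vector, MUC1, KRT19 and SOX9 rose and KRT18 fell in SLC22A10_OE, and MUC1 rose and KRT8, KRT18 and SOX9 fell in SLC22A15_OE. Of 5 mesenchymal markers, 3 were tested, with a summed level of 3367 to 3555 CPM in SLC22A10_OE, 2588 to 2764 CPM in SLC22A15_OE and 3046 to 3243 CPM in vector, nearly all of it VIM. VIM rose by 0.13 in SLC22A10_OE against vector, while ZEB1 fell by 0.28 and FN1 by 0.38, and VIM fell by 0.24 and ZEB1 by 0.31 in SLC22A15_OE against vector. The acinar marker CTRB1 and the endocrine marker CHGA averaged under 1 CPM in every group. Of 4 blood and 4 endothelial markers, 1 each was tested: CD14 averaged 8.14 CPM in SLC22A10_OE, 0.885 in SLC22A15_OE and 0.612 in vector, and CDH5 averaged 6.86, 2.68 and 1.11 CPM.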

How the data were processed

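RNA-seq was made with a strand-specific kit after depletion of ribosomal RNA, per the labels' protocols. The authors deposited CPM for 16750 genes with Entrez numbers, and for each comparison with vector a table with, per its header, the log2 fold change, the average log2 CPM, the p-value and the FDR of each gene. The submitters' processing notes name edgeR and the builds hg38 and mm9. For the aligner, the counting program and the annotation, the labels name nothing. In the deposited CPM, 100% of values were whole reads over a scaled library size, within a tolerance of 0.1 read. The edgeR quasi-likelihood test (4.0.16) on the recovered reads called 9742 genes in SLC22A10_OE, 2982 in SLC22A15_OE and 9133 between them.

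The main test was limma 3.58.1 (R 4.3.3) with a mean trend on log2(CPM + 1), with all 9 libraries in 1 fit and 6 residual degrees of freedom. Genes with at least 1 CPM in at least 3 libraries were tested, 14554 in all, with two-sided p-values adjusted by Benjamini-Hochberg and a threshold of 0.05. The procedure was run on simulated counts with libraries drawn independently around the vector means, which does not cover the differences among libraries of a group seen here. The members, lists and tests were chosen with earlier results of these data known. Named besides the members were up to 3 genes a direction of each list by size, the nearest patterns to EGFR and ERBB3, and up to 3 neighbours a side. Columns were named by group and the numbers 1 to 3, used here as library numbers, which could not be tied to the suffixes of the titles. Same-numbered SLC22A15_OE and vector libraries deviated together from their group means (correlations of 0.57, 0.31 and 0.19). These numbers were taken as pairs from the data, not the labels. Unlike-numbered libraries gave 0.35 for SLC22A15_OE 3 with vector 2 and 0.16 for SLC22A15_OE 2 with vector 3. Unlike-numbered pairs that included a number 1 gave -0.48 to -0.26. The deviations thus set number 1 apart but do not pair numbers 2 and 3. Calls with this block rest on a pairing read from the same data. Number 1 in both SLC22A15_OE and vector was the library with least mitochondrial ribosomal RNA. Same-numbered SLC22A10_OE libraries correlated with those of both groups from -0.41 to 0.14 and were not taken as pairs. Alternatives covered scaling, pseudocount, filter, tool (DESeq2 1.42.0), groups in the fit, library terms and each library left out. Promoter sequences and neighbour positions came from RefSeq (GRCh38.p14), and lengths from GENCODE release 29. Counting errors cover sampling of reads only.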

Additional observations from a re-analysis of the deposited data

How the results depend on the processing

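Of 27 differences of members, 19 kept their direction and side of the threshold in each of 17 or 18 alternative settings, among them every difference of EGFR, AREG and HBEGF. ERRFI1 in SLC22A10_OE against vector turned to -0.028 with centring and passed the threshold with a term for the library of each group with least mitochondrial rRNA (adjusted p 0.00232) or without vector 2 (adjusted p 0.0392). EREG in SLC22A15_OE against vector, not called, turned to 0.0084 without SLC22A15_OE 1 and 0.014 without vector 2, in a range of -0.079 to 0.014 with 1 library left out. ERBB2 in SLC22A15_OE against vector passed with the same term (adjusted p 0.0182). That term raised the genes called in SLC22A15_OE against vector to 5608, where 2966 were called without it, and the 6 libraries with more mitochondrial rRNA, a setting chosen after seeing the data, gave 4494. The cause was not tested.

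The replicate block by column number over all 9 libraries called 9688, 2781 and 9111 genes and 8, 5 and 8 members in SLC22A10_OE against vector, SLC22A15_OE against vector and between them, with BTC in SLC22A15_OE lost (adjusted p 0.0666). In a fit of SLC22A15_OE and vector alone, added after seeing the data, the block called 5922 genes and 7 members, with BTC kept (adjusted p 0.0138) and ERBB2 gained (adjusted p 0.0157), and changed no other member's call there. Leaving out 1 library gave 8909 to 9815, 2074 to 3526 and 8251 to 8920 genes, and 7 to 8, 4 to 6 and 8 members. With the longest transcript as length, 12 of 27 per-kb levels moved by over 1 SD and their order did not change. Depth limits HBEGF and ERBB3, which had 48 to 235 and 59 to 650 reads a library. It also limits EPGN, NRG2 and NRG4, which had as few as 14, 19 and 8 reads in a library.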

Other observations

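EGFR-AS1, a transcript on the strand opposite EGFR, averaged 1.37 ± 0.43 CPM in SLC22A10_OE, 1.60 ± 0.19 in SLC22A15_OE and 3.42 ± 0.64 in vector (SD, n = 3 each), from 30 to 135 reads a library. The labels do not say whether counting used strand, so a share of the reads of EGFR-AS1 and EGFR may be counted for either. The patterns nearest to that of ERBB3 over the 9 libraries were those of OAS2 and DDX58, both induced by interferon, and of CREB3L1, a transcription factor of the endoplasmic reticulum, at distances of 0.349, 0.409 and 0.351. DDX58 averaged 65.8 ± 4.4 CPM in SLC22A10_OE, 17.0 ± 1.7 in SLC22A15_OE and 12.7 ± 0.7 in vector. OAS2 averaged 5.98 ± 0.49 CPM in SLC22A10_OE, 0.733 ± 0.085 in SLC22A15_OE and 0.364 ± 0.122 in vector. These genes were picked for the likeness, so their levels are a description.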
